A study of Homo sapiens with 12 samples.

Results

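The mitochondrial ribosomal protein genes were examined as the 78 rows of the gene count table whose symbol is MRPL or MRPS followed by a number and at most a letter A, B or C, out of 45478 rows in all. A further 48 rows with such a start, 41 pseudogenes and 7 long non-coding transcripts, were left out. Messenger RNA was sequenced from 4 groups of cultured human clear cell renal cell carcinoma cells with 3 replicate libraries each. 786-O and A498 are the parental lines, grown without drug. Their sunitinib-resistant derivatives, here resistant 786-O and resistant A498, were selected at 4 µM and 2 µM sunitinib over 4 months or more than 20 passages in drug-containing medium. Sunitinib is an inhibitor of several receptor tyrosine kinases that is given in renal cancer. Each resistant line is 1 named culture, and the treatment label reads none for every library. All 12 titles also carry a code with the letters veh, which the labels do not explain. Whether the replicates of a group were separate cultures is not stated, so the p-values measure the spread between these libraries, which may be technical.

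The mitochondrial ribosome translates the few mRNAs that the mitochondrial genome encodes, all of them for subunits of the oxidative phosphorylation complexes. Its RNA comes from mitochondrial DNA, whereas all its proteins are made from nuclear genes in the cytosol and imported. MRPL proteins belong to the large subunit, which joins amino acids, and MRPS proteins to the small subunit, which reads the mRNA. Some have a counterpart in bacteria and others occur only in mitochondria. The symbols are not a full guide: MRPS30 and MRPS18A sit in the large subunit, and MRPS36 is now known as a component of the 2-oxoglutarate dehydrogenase complex. By structure the 78 genes therefore divided into 51 for the large subunit, 26 for the small subunit and MRPS36.

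Library totals ranged from 20042519 to 47972092 counts, of which 76199 to 214429 fell on the 78 genes. Levels are given in CPM, counts per 1000000 after scaling of the libraries by the trimmed mean method. The labels assign a separate batch to every group, and batch and group cannot be told apart. Across genes with at least 10 CPM, the libraries labelled resistant A498 correlated with those of resistant 786-O at a median r of 0.968, of 786-O at 0.905 and of A498 at 0.810. These libraries therefore stood closer to both 786-O groups than to the line named as their parent, and their changes are given below against A498 and against 786-O. Whether cultures or libraries were exchanged or mixed was not tested, and each value of resistant A498 against A498 compares libraries as they are labelled. Of 10 markers of renal carcinoma cells all passed the filter on low counts, with PAX8 at 313, 308 and 315 CPM in 786-O, whereas CA9 was at a mean of 0.0175 ± 0.0304 CPM in 786-O against 1.29 ± 0.25 CPM in A498 and 0.0124 ± 0.0215 CPM in resistant A498 (SD, n = 3). Of 10 T cell markers only CD8A passed it, with a mean of at most 0.512 CPM, and the summed level of all 10 was 0.18 to 0.70 CPM. Genes that lie opposite abundant genes also held high counts. BEST1, opposite FTH1, was at 1631 CPM where FTH1 was at 2028 CPM, and TUBA1B-AS1 was at 1886 CPM where TUBA1B was at 2343 CPM. VIM-AS1 was at 1282 CPM where VIM was at 4453 CPM. These are means of 12 libraries, for pairs chosen after their values were seen. Reads of genes that overlap on opposite strands cannot be told apart in these counts. Of the mitochondrial ribosomal protein genes, 17 share over 10% of their exon bases with a gene on the opposite strand and 14 with one on the same strand. Over the 49 tested genes with neither, the median log2 fold changes of resistant 786-O against 786-O and of resistant A498 against 786-O were -0.31 and -0.38. Some of the same-strand genes, among them those at MRPL12 and MRPS24, have no row in the count table.

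The summed level of the 78 genes was highest in 786-O. It was 4886, 4758 and 4757 CPM in 786-O, 3721, 4152 and 3610 CPM in resistant 786-O, 4116, 4019 and 4034 CPM in A498, and 3723, 3646 and 3656 CPM in resistant A498. The 786-O libraries lay above the other 9, and resistant 786-O overlapped both A498 and resistant A498. As a share of all counts, the genes took 0.449% ± 0.00464 in 786-O, 0.396% ± 0.0268 in resistant 786-O, 0.402% ± 0.00416 in A498 and 0.382% ± 0.00388 in resistant A498 (SD, n = 3). Less RNA per cell and a smaller share of cells making it cannot be told apart in bulk libraries. In the gene-by-gene means, 48 of 77 tested genes were highest in 786-O, 17 in A498, 8 in resistant 786-O and 4 in resistant A498. The lowest mean was in resistant A498 for 31, in A498 for 22, in resistant 786-O for 20 and in 786-O for 4. Over the 12 libraries, 39 of the 77 genes correlated with the mean log2 level of the others at r above 0.7, and 10 at r below 0, among libraries that share their group and depth. Outside the family, the named genes whose log2 level was most like the mean of the family were PAK1IP1 (Pearson r = 0.993 over 12 libraries), WDR3 (0.991) and RINT1 (0.988), which is a description.

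**Figure D1:**
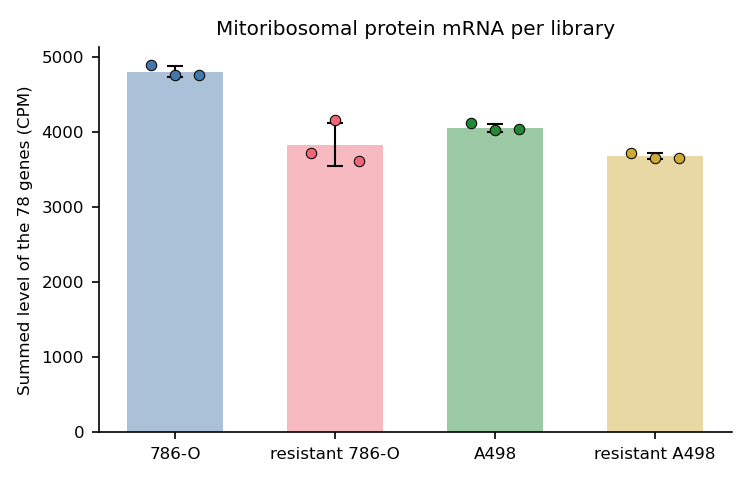
Summed level of the 78 mitochondrial ribosomal protein genes, in CPM, for each of the 12 libraries (points), with the mean of the group (bar) and its SD (error bar, n = 3). The 786-O libraries, at 4757 to 4886 CPM, lie above all others, and 1 of the resistant 786-O libraries, at 4152 CPM, lies above the A498 libraries.

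That library, resistant 786-O replicate 2, held more mitochondrial ribosomal protein mRNA than its sister libraries. Its level was the higher for 70 of the 77 genes when set against the mean of the other replicates, with a median difference of 0.17 on the log2 scale, and replicate 3 was above the mean of its sisters for 4 of the 77, with a median difference of -0.13. The median coefficient of variation over the genes was 7.72% in resistant 786-O, against 2.81% in 786-O, 3.72% in A498 and 3.2% in resistant A498. Other genes varied more in this group as well. Across genes with at least 10 CPM, resistant 786-O libraries correlated with each other at a median r of 0.982. The values were 0.999 in 786-O and 0.998 in A498 and in resistant A498. Replicate 2 was also highest of its group in summed cytosolic ribosomal protein mRNA (35088 CPM, against 33059 and 31849). It was lowest in mitochondrially encoded mRNA (19783 CPM, against 25228 and 21236).

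The comparison of resistant 786-O with its parental line 786-O sets the cells selected in sunitinib beside unselected cells, as 1 culture and 1 batch each. The filter removed MRPL53 alone, and 77 of the 78 genes were tested among 19929. Of these, 51 fell, 8 rose and 18 did not pass an adjusted p of 0.05 in edgeR's quasi-likelihood test. Among all genes tested, 33.4% were called lower and 34.9% higher. The median log2 fold change was -0.31 over the mitochondrial ribosomal protein genes, with quartiles of -0.53 and -0.12, and 0.03 over all genes. Scaling by library size alone moved these medians to -0.17 and 0.18, with 45 of the 77 genes lower and 12 higher, and with 5125 of all genes lower and 8541 higher in place of 6653 and 6946. The libraries did not overlap for 49 genes that were lower and 8 that were higher, compared with 34.4% and 34.5% of all genes. Without resistant 786-O replicate 2, 60 fell and 6 rose. More of all genes were called then as well, 7274 lower and 7599 higher of 20228 tested. A fall beyond 0.5 on the log2 scale was called for 21 genes and a rise beyond 0.5 for 3, where all genes gave 18.3% and 25.7%.

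**Figure D2:**
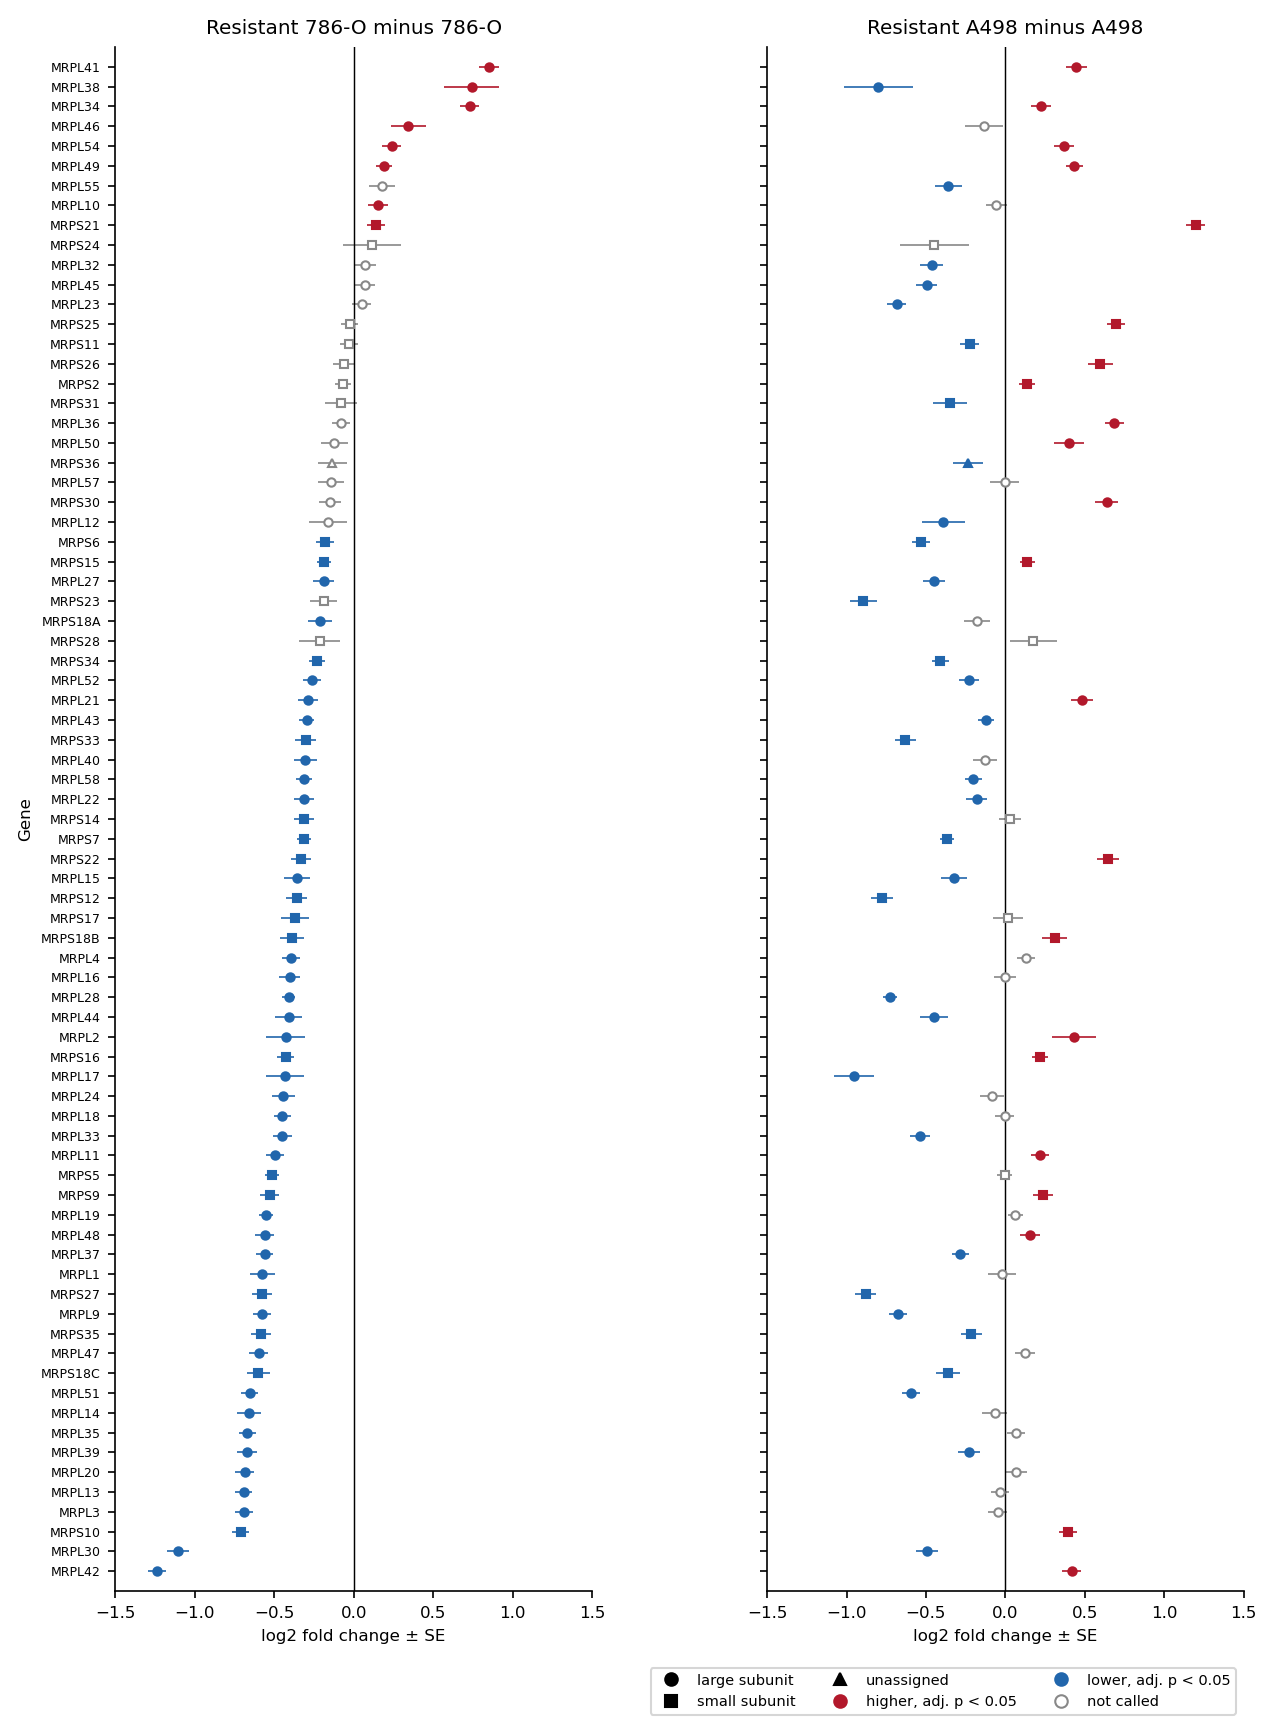
Log2 fold change with its standard error for each of the 77 tested genes, in resistant 786-O against 786-O (left) and in resistant A498 against A498 (right), in 1 order set by the left panel. Circles are large subunit, squares small subunit and the triangle MRPS36, filled blue where called lower (51 on the left, 33 on the right), filled red where called higher (8 and 22) and open grey where not called at an adjusted p of 0.05.

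The largest fall was that of MRPL42, a large-subunit protein found only in mitochondria, at chr12:93467514-93516214 in GRCh38. It was at 55.3, 56.6 and 59.1 CPM in 786-O and 24.7, 25.1 and 22.7 CPM in resistant 786-O. All resistant 786-O libraries lay below the lowest 786-O library by more than the range within either group. The log2 fold change was -1.24 ± 0.06 (SE), with an edgeR adjusted p of 2.22e-11. MRPL30, a large-subunit protein with a bacterial counterpart, at chr2:99181152-99199561, was at 50.1, 51.5 and 50.8 CPM in 786-O and 22.9, 26.4 and 21.6 CPM in resistant 786-O. The groups were apart again, with a log2 fold change of -1.11 ± 0.07 (SE) and an edgeR adjusted p of 5.88e-10. These were the 2 genes beyond 1 on the log2 scale. MRPL30 shares 11.8% of its exon bases with another annotated gene on the same strand, and how reads from these bases were assigned was not tested.

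Other large-subunit genes fell by smaller steps. MRPL3, which in bacteria helps to nucleate assembly of the large subunit, was at 181, 177 and 175 CPM in 786-O and 107, 121 and 102 CPM in resistant 786-O, a log2 fold change of -0.69 ± 0.06 (SE; edgeR adjusted p = 2.19e-08). MRPL20, at chr1:1401909-1407293, was at 101, 95.7 and 97.9 CPM in 786-O and 56.5, 68.5 and 58.1 CPM in resistant 786-O. Its highest resistant 786-O library was replicate 2, still below every 786-O library, and the log2 fold change was -0.69 ± 0.06 (SE; edgeR adjusted p = 7.31e-08). MRPL13, MRPL39 and MRPL35 changed by -0.69, -0.67 and -0.67 on the log2 scale, all called lower without overlap of the libraries. MRPL3 and MRPL35 belong to the conserved core, whereas MRPL39 has no bacterial counterpart.

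In the small subunit the largest fall was that of MRPS10, a conserved protein of the small-subunit head. It was at 78.5, 75.4 and 76.4 CPM in 786-O and 46.1, 49.7 and 45 CPM in resistant 786-O, with a log2 fold change of -0.71 ± 0.05 (SE; edgeR adjusted p = 7.71e-09). MRPS18B and MRPS18C are small-subunit copies of a single bacterial protein, and MRPS18A is the copy of the large subunit. All 3 copies fell, with log2 fold changes of -0.60 ± 0.07 for MRPS18C, -0.39 ± 0.08 for MRPS18B and -0.21 ± 0.08 for MRPS18A (SE). MRPS18A and MRPS18C share 50.9% and 40.2% of their exon bases with a gene on the opposite strand. MRPS18A in resistant 786-O replicate 2 was at 32.8 CPM, within the 31.5 to 34.1 CPM of 786-O, so its groups overlapped.

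The rises were led by MRPL41, a large-subunit protein found only in mitochondria, at chr9:137551879-137552555. It was at 64.7, 58.9 and 58.6 CPM in 786-O and 104, 119 and 106 CPM in resistant 786-O, with every resistant 786-O library above every 786-O library. The log2 fold change was 0.85 ± 0.06 (SE), with an edgeR adjusted p of 6.16e-09. MRPL34, one of the smallest conserved large-subunit proteins, at chr19:17292609-17306843, was at 37.9, 32.3 and 32.4 CPM in 786-O and 55.4, 59.7 and 54.9 CPM in resistant 786-O. Its log2 fold change was 0.73 ± 0.06 (SE), with an edgeR adjusted p of 3.12e-08. MRPL49 rose by 0.19 ± 0.05 and MRPL46 by 0.35 ± 0.11 on the log2 scale (SE), the latter at 4.63 to 6.47 CPM. MRPL54 was at 29.9, 27.7 and 28.3 CPM in 786-O and 34.6, 35.2 and 31.6 CPM in resistant 786-O, a log2 fold change of 0.24 ± 0.06 (SE), which turned to -0.01 when GC content and length were corrected for.

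MRPL38, MRPL10 and MRPS21 were called higher with less support. MRPL38 was at 1.5, 1.76 and 1.89 CPM in 786-O and 3.55, 2.4 and 2.67 CPM in resistant 786-O, shares 41.1% of its exon bases with another gene on the same strand, and lost its call under the GC and length correction. MRPL10, which holds the MRPL12 copies of the flexible stalk where translation factors dock, was at 51.5, 51.2 and 50.5 CPM in 786-O and 51.8, 64.3 and 54.4 CPM in resistant 786-O. Its log2 fold change of 0.15 ± 0.06 (SE; edgeR adjusted p = 0.0451) became 0.05 without resistant 786-O replicate 2 and was not called then, and the call was also lost without any 1 of the 786-O libraries, with the replicate number as a block (0.15), with limma, without the filter on low counts and in a fit of these 2 groups alone. MRPS21 was at 43.9, 40.3 and 42.9 CPM in 786-O and 46.5, 49.4 and 44.4 CPM in resistant 786-O, a log2 fold change of 0.14 ± 0.06 (SE), and was not called without resistant 786-O replicate 2, without 786-O replicate 2 or 3, without the filter on low counts or after thinning to the smallest library. It was the small-subunit gene called higher.

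The 250 bases before the start of 5 genes are shown because these genes are among the furthest movers in resistant 786-O, MRPL42, MRPL20 and MRPL3 downward and MRPL34 and MRPL41 upward, with matches to motifs of factors known to act on genes for mitochondrial proteins. They are taken from RefSeq on GRCh38.p14 and written 5′ to 3′ on the strand of the gene in lower case, with matches in capitals. MRPL42 lies on the plus strand (chr12:93467264-93467513), MRPL20 (chr1:1407294-1407543) and MRPL3 (chr3:131502972-131503221) on the minus strand, and MRPL34 (chr19:17305622-17305871, the last of its 4 RefSeq starts and the one whose window held a match to a motif searched) and MRPL41 (chr9:137551629-137551878) on the plus strand.
MRPL42: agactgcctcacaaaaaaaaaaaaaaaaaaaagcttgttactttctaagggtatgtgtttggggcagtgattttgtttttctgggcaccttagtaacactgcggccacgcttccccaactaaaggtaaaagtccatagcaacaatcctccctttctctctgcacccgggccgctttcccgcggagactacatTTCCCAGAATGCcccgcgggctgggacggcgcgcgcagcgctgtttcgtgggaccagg
MRPL20: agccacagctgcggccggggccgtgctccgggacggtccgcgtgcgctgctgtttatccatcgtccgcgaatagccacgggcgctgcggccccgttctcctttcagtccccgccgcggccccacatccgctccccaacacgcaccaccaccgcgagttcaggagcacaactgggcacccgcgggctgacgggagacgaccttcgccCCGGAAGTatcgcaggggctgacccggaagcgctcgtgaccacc
MRPL3: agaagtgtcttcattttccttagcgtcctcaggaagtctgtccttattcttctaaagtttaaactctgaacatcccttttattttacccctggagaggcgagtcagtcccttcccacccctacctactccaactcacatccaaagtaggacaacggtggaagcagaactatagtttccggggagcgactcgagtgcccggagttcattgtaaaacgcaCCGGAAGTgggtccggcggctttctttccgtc
MRPL34: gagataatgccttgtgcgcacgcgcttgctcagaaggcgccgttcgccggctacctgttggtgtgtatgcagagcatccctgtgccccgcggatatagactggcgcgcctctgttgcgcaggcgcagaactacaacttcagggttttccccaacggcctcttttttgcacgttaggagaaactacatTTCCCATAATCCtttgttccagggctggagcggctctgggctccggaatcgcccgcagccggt
MRPL41: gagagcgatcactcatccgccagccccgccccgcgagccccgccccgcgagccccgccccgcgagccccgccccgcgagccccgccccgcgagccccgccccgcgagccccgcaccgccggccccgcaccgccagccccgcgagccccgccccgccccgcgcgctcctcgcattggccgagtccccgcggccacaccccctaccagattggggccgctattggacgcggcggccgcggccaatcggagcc
The capitals mark the ETS motif CCGGAAGT, which GABPA can bind, 44 bases before the start of MRPL20 and 32 before that of MRPL3, and the ZNF143 motif of 12 bases 58 bases before the start of MRPL42 and 63 before that of MRPL34. MRPL42 also held the YY1 motif, 9 bases after its start and so beyond the bases shown. The MRPL41 window had no match to the 5 motifs searched. MRPL30, MRPS10 and MRPL13 fell further than MRPL20, and MRPL38 rose further than MRPL34, but these genes are not shown. Of these, MRPS10 held the YY1 motif, and MRPL38, which rose, held both the ETS and the YY1 motif. No match was found for MRPL30 and MRPL13.

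RefSeq gave 85 promoter windows of 300 bases, 250 before and 50 after the start, for 69 of the 78 genes. On either strand the ETS motif CCGGAAGT was in 14 of the 85 windows (16.5%), compared with 4.14% of 35116 windows of all genes. The YY1 motif AAGATGGCG was in 13 (15.3%), compared with 1.75%, and the ZNF143 motif in 3 (3.53%), compared with 0.350%. The palindromic NRF1 motif of 10 bases was in 1 window, that of MRPL17 (1.18%, compared with 1.24%), and the E-box CACGTG in 9 (10.6%, compared with 7.26%). In none of the 85 windows did matches of different motifs share a base. A match is only a run of letters. In resistant 786-O against 786-O, 10 of the 11 tested genes with the ETS motif were lower, as were 36 of the 57 tested genes with a window but without that motif. With the YY1 motif 6 of 13 were lower, and without it 40 of 55. No test was made of these counts.

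The fall reached both subunits. Of the tested large-subunit genes 34 of 50 fell and 7 rose, with a median log2 fold change of -0.38, and of the small-subunit genes 17 of 26 fell and 1 rose, with a median of -0.31. Of genes with a bacterial counterpart 34 of 46 fell and 3 rose, with a median of -0.40, and of those found only in mitochondria 17 of 30 fell and 5 rose, with a median of -0.24. No test was made between these classes. Among genes with a special role, MRPL44, which carries a ribonuclease III fold, changed by -0.41 ± 0.08, and MRPL58, a peptidyl-tRNA hydrolase that frees stalled ribosomes, by -0.31 ± 0.05 on the log2 scale (SE), both called lower. MRPL12 of the stalk (-0.16 ± 0.12), MRPS30 (-0.15 ± 0.07) and MRPS36 (-0.14 ± 0.09, SE) were not called. MRPL12 shares 69.5% of its exon bases with a readthrough gene model that is in the annotation used here but has no row in the count table.

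**Figure D3:**
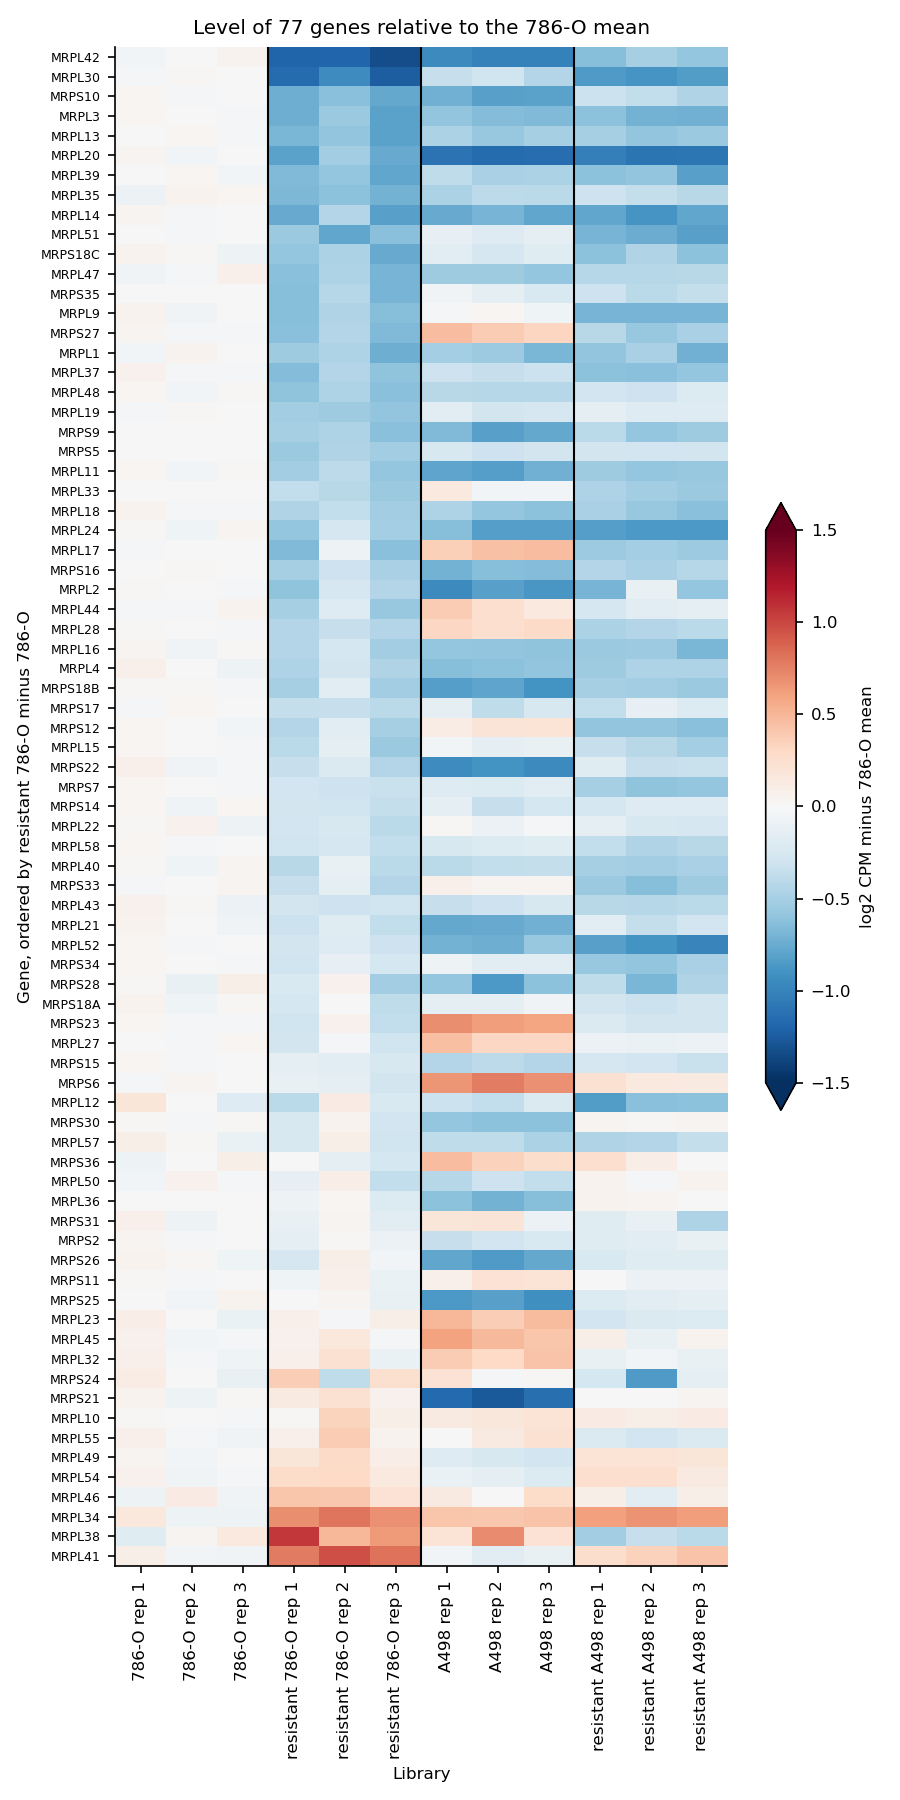
Level of the 77 tested genes in the 12 libraries, as log2 CPM minus the mean of the 786-O libraries (blue lower, red higher), in the order of the log2 fold change of resistant 786-O against 786-O. The 51 falling and 8 rising genes of resistant 786-O stand at the top and bottom, and resistant 786-O replicate 2 is paler than its sister libraries in most rows.

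The libraries labelled resistant A498 gave a mixed picture against A498. Of the 77 genes 33 fell, 22 rose and 22 were not called, where 36.4% of all genes were called lower and 36.2% higher. The median log2 fold change was -0.07 (0.0014 with scaling by library size alone), against 0.00 over all genes. Beyond 0.5 on the log2 scale 12 fell and 6 rose, where all genes gave 26.5% and 25.8%. The largest rise was that of MRPS21, a conserved small-subunit protein at chr1:150293861-150308979, which was at 18.8, 17.6 and 19.3 CPM in A498 and 42.5, 42.2 and 43.4 CPM in resistant A498. The groups were far apart, with a log2 fold change of 1.20 ± 0.06 (SE; edgeR adjusted p = 3.52e-11). The resistant A498 libraries were near the 786-O level of MRPS21, from which they differed by 0.01 ± 0.06 on the log2 scale (SE; edgeR adjusted p = 0.872). MRPS25, MRPL36, MRPS22, MRPS30, MRPS26, MRPL21 and MRPL41 rose by 0.70, 0.68, 0.65, 0.64, 0.60, 0.48 and 0.45. MRPS22, MRPS25 and MRPS26 are small-subunit proteins found only in mitochondria, and MRPS25 and MRPS22 share 39.1% and 38.9% of their exon bases with a gene on the opposite strand.

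Among the falls, MRPL17 of the large subunit was at 102, 108 and 110.1 CPM in A498 and 54.5, 56 and 54.8 CPM in resistant A498, a log2 fold change of -0.95 ± 0.13 (SE; edgeR adjusted p = 2.33e-05). MRPS23, a small-subunit protein found only in mitochondria, was at 129.9, 124 and 120.3 CPM in A498 and 68.9, 65.9 and 66.3 CPM in resistant A498, with a log2 fold change of -0.89 ± 0.08 (SE; edgeR adjusted p = 1.65e-07). MRPS27, a pentatricopeptide repeat protein of the small subunit, changed by -0.88 ± 0.06. MRPS12, part of the decoding centre, changed by -0.78 ± 0.07, MRPL28 by -0.73 ± 0.04, MRPL23 at the exit of the peptide tunnel by -0.69 ± 0.06 and MRPL9 by -0.68 ± 0.06 (SE). MRPL38, at 1.97, 2.79 and 1.99 CPM in A498, also fell (-0.80 ± 0.21, SE), a call lost when GC content and length were corrected for.

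Against 786-O, the group that their profile resembled more, the resistant A498 libraries were lower in most of these genes. Here 57 of 77 genes were lower, 5 higher and 15 not called, against 32.0% and 31.5% of all genes, and the median log2 fold change was -0.41, against 0.00 over all genes. Scaling by library size alone, which moved the median over all genes from 0.00 to 0.15, gave 42 lower and 11 higher. Of all genes it gave 4734 lower and 7887 higher, in place of 6375 and 6278. Beyond 0.5 on the log2 scale 27 were lower and 1 higher, where all genes gave 17.7% and 22.2%. MRPL20 was at 48.3, 45.9 and 46.4 CPM in resistant A498, less than the 95.7 to 101 CPM of 786-O, a log2 fold change of -1.07 ± 0.06 (SE; edgeR adjusted p = 6.73e-10). MRPL52 of the large subunit was at 64.6, 62.4 and 63.7 CPM in 786-O and 36.1, 34.1 and 32 CPM in resistant A498, with a log2 fold change of -0.90 ± 0.06 (SE; edgeR adjusted p = 1.96e-09). MRPL30, MRPL24, MRPL14, MRPL51, MRPL12 and MRPL9 differed by -0.86, -0.85, -0.82, -0.75, -0.70 and -0.70, each called lower. The 5 genes called higher were MRPL34 (0.64), MRPL41 (0.35), MRPL54 (0.22), MRPL49 (0.19) and MRPS6 (0.17), the last not called without 786-O replicate 1 or 3. This comparison shares the 786-O libraries with that of resistant 786-O, so the 2 sets of calls are not independent.

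**Figure D4:**
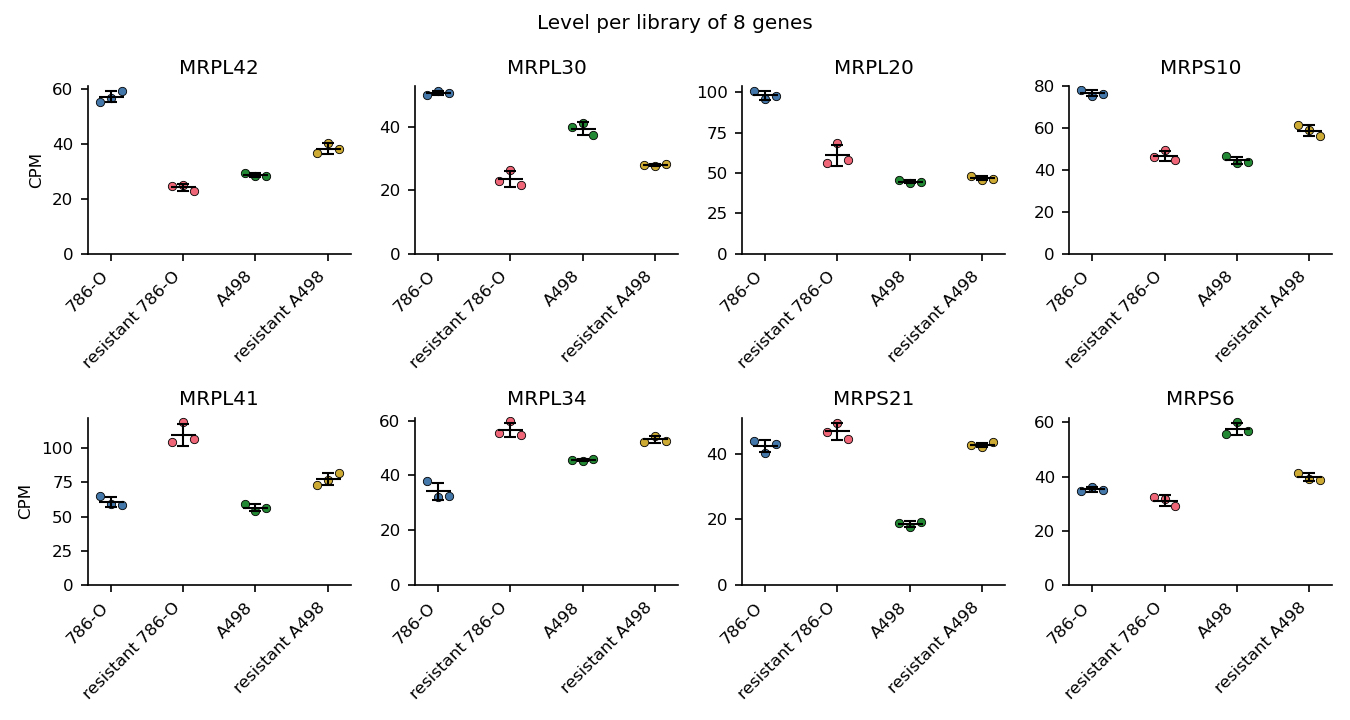
Level in CPM of 8 mitochondrial ribosomal protein genes in each of the 12 libraries (points), with the mean and SD of each group (bar and whiskers, n = 3). MRPL42, MRPL30, MRPL20 and MRPS10 are highest in 786-O, MRPL41 and MRPL34 are highest in resistant 786-O, MRPS21 is low in A498 alone and MRPS6 is highest in A498.

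The changes of the 2 lines were set against each other in 1 test. In edgeR's test of the difference between the change of resistant A498 against A498 and that of resistant 786-O against 786-O, 39 genes were called higher, 18 lower and 20 not called, compared with 33.8% and 34.3% of all genes. The 57 genes called in either direction are a share near the 68.1% of all genes. Beyond 0.5 on the log2 scale 27 were higher and 8 lower, compared with 26.1% and 28.9%. In the calls of the separate comparisons, 23 genes were lower in both, 5 were higher in both, 12 had opposite calls and 3 were called in neither, where the same joint calls took 14.3%, 15.1%, 21.6% and 10.2% of all genes. The genes higher in both were MRPL34, MRPL41, MRPL49, MRPL54 and MRPS21. MRPL2, MRPL11, MRPL21, MRPL42, MRPL48, MRPS9, MRPS10, MRPS15, MRPS16, MRPS18B and MRPS22 were lower in resistant 786-O and higher in resistant A498 (11 genes, compared with 11.1% of all genes), and MRPL38 the reverse. MRPL42 was at 29.3, 28.2 and 28.3 CPM in A498 and 36.5, 40.2 and 38 CPM in resistant A498, a log2 fold change of 0.42 ± 0.06 (SE; edgeR adjusted p = 8.21e-06). The resistant A498 libraries thus stood between A498 and 786-O for MRPL42, and its 2 changes differed by 1.66 ± 0.08 on the log2 scale (SE; edgeR adjusted p = 3.66e-11). For the 11 genes lower in resistant 786-O and higher in resistant A498, a resistant A498 mean above A498 follows from the choice. Each resistant A498 mean was also below 786-O, and 57 of all 77 genes were called lower in that comparison.

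The parental lines differed in these genes as well. 786-O was above A498 for 49 of 77 genes and below it for 15, where 38.0% of all genes were called higher and 36.1% lower, and the median log2 difference was 0.28, against 0.04 over all genes. Beyond 0.5 on the log2 scale 26 were higher in 786-O and 3 lower, where all genes gave 25.6% and 28.0%. MRPS21 (1.19 ± 0.06), MRPL20 (1.14 ± 0.06) and MRPL42 (1.00 ± 0.06) had the largest log2 differences in favour of 786-O (SE). MRPS22, MRPL2, MRPS25, MRPS18B and MRPS26 were higher in 786-O by 0.93, 0.88, 0.87, 0.84 and 0.80. MRPS6, a conserved small-subunit protein at chr21:34073224-34143034, was the furthest in the other direction, at 34.6, 36.3 and 35.1 CPM in 786-O and 55.8, 60.2 and 56.9 CPM in A498. Its log2 difference was -0.71 ± 0.06 (SE), with an edgeR adjusted p of 8.59e-09. MRPS23 (-0.64), MRPL45 (-0.51), MRPL23 (-0.45), MRPL17 (-0.42), MRPL34 (-0.41), MRPS27 (-0.39) and MRPL32 (-0.37) were also lower in 786-O, of which MRPL34 lost its call under the GC and length correction.

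On some chromosomes these genes differed in the same direction as most genes tested there. All 4 genes on chromosome 3 were higher in 786-O than in A498, with a median of 0.75 on the log2 scale, and 55.7% of the 1076 genes tested there were, with a median of 0.37. On chromosome 6 the figures were 5 of 6 genes with a median of 0.76, against 51.9% of 988 genes with a median of 0.36. On chromosome 17, 7 of 8 genes were lower in resistant A498 than in A498, among them MRPS23, MRPL45 and MRPL38, with a median of -0.42, and 57.9% of 1242 genes were, with a median of -0.41. In 786-O against A498 the chromosome 17 genes split into 3 higher and 4 lower, where 63.8% of genes there were lower. On chromosome 2, 5 of 7 genes were higher in 786-O than in A498, with a median of 0.28, where the median of genes there was -0.01. These chromosomes are examples, and others are not given. In resistant 786-O against 786-O, in contrast, the medians over the genes of chromosomes 3 and 6 were -0.46 and -0.44 for the mitochondrial ribosomal protein genes and -0.07 and 0.04 for all genes there. Chromosome content was not measured, and its part in these differences was not tested.

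The resistant groups were the closest pair. Between resistant A498 and resistant 786-O, 46 of 77 genes were not called, 14 were higher and 17 lower in resistant A498, where all genes gave 23.0% and 22.9%, and the median log2 difference was -0.06. Beyond 0.5 on the log2 scale 1 was higher and 4 lower, where all genes gave 8.84% and 11.6%. The counts moved to 9 higher without resistant 786-O replicate 3 or without resistant A498 replicate 1, and to 19 higher without resistant 786-O replicate 2. Of all genes, 4460, 3969 and 5431 were called higher in these 3 fits, in place of 4579. The log2 differences were -1.18 ± 0.20 for MRPL38, -0.64 ± 0.06 for MRPL52, -0.54 ± 0.13 for MRPL12 and -0.51 ± 0.06 for MRPL41 (SE), all called lower in resistant A498. MRPL42 was higher in resistant A498 by 0.66 ± 0.06 (SE; edgeR adjusted p = 2.91e-07).

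The genes were far from equal in level although their proteins are built into the ribosome in single copies for the most part. Per kilobase of merged exon, the mean over the 12 libraries was highest for MRPL41, at 131 CPM per kb, followed by MRPS34 (122), MRPL51 (77.4), MRPL14 (74.4) and MRPL15 (74.1). The lowest were MRPS25 (2.02), MRPS24 (0.868), MRPL46 (0.832), MRPL38 (0.607) and MRPL53 (0.015 CPM per kb). With the longest transcript in place of merged exons, MRPL41, MRPS34 and MRPL51 remained the first 3, at 131, 128 and 120 CPM per kb, and MRPL53, MRPL46, MRPS24 and MRPL38 the last 4. The other places changed. MRPL37 (103) and MRPL33 (91.7) then stood above MRPL15 (76.0) and MRPL14 (74.4). MRPL42 (2.38) and MRPS17 (4.10) then stood below MRPS25 (4.53 CPM per kb). MRPL53 had 4 counts in the whole series, at most 1 in any library. Of its exon bases 72.8% overlap CCDC142 on the same strand and 79.4% another gene on the opposite strand. MRPS24 shares 23.2% of its exon bases with a readthrough model that has no row in the count table. MRPL38 shares 41.1% and MRPL46 11.3% with another gene on the same strand, and MRPS25 39.1% with one on the opposite strand. Among the highest, MRPS34 shares 31.2% and MRPL51 27.6% with a gene on the opposite strand. The part of shared reads in the levels of these genes was not tested.

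Some of these genes start next to a neighbour that runs the other way. A protein-coding gene began head-to-head within 1000 bases for 17 of the 78 genes (21.8%), and for 10.6% of 13999 tested protein-coding genes. Of the 16 genes whose neighbour was tested, 8 were lower in resistant 786-O, and for 3 of these, MRPL18 with TCP1, MRPL27 with EME1 and MRPL52 with SLC7A7, the neighbour was lower as well. Of all 16 neighbours 6 were lower and 2 higher, where all genes gave 33.4% and 34.9%. The share of lower neighbours was thus near that of all genes. MRPL30 fell by 1.11 on the log2 scale, and its neighbour MITD1, 94 bases away, changed by -0.18 and was not called. MRPL49 rose whereas FAU, 6 bases away and coding for a cytosolic ribosomal protein, fell by 0.40. These pairs were named after their values were seen.

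Other parts of the mitochondrial translation system were read from lists of known genes, to be set beside the 33.4% lower and 34.9% higher of all genes in resistant 786-O and the 36.4% and 36.2% in resistant A498 against A498. The other 5 proteins of the mitochondrial ribosome, which carry different symbols, all fell in resistant 786-O. Their log2 fold changes were -0.51 ± 0.07 for DAP3, -0.40 ± 0.06 for CHCHD1, -0.36 ± 0.05 for PTCD3, -0.21 ± 0.06 for AURKAIP1 and -0.15 ± 0.05 for GADD45GIP1 (SE). Without resistant 786-O replicate 1, 3 of the 5 were called, as with scaling by library size alone and in a fit of these 2 groups alone. In resistant A498 against A498 1 of the 5, AURKAIP1, rose and the others were not called.

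**Figure D5:**
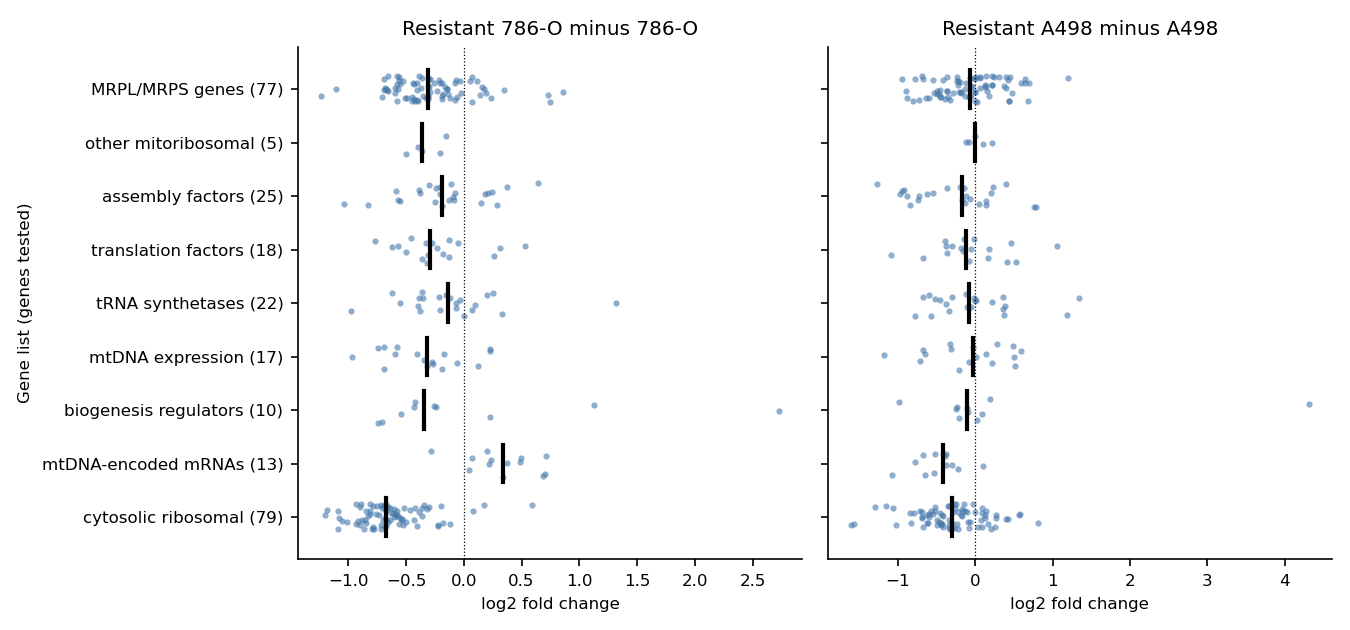
Log2 fold change of each tested gene (points) in the mitochondrial ribosomal protein genes and 8 related lists, in resistant 786-O against 786-O (left) and in resistant A498 against A498 (right), with the median of each list (black bar) and the number of genes tested in brackets. On the left the medians of the 2 ribosomal protein lists, -0.31 and -0.67, lie below 0 and that of the mitochondrial mRNAs, 0.34, above it.

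Of 25 assembly factors of this ribosome 12 fell and 6 rose in resistant 786-O, with a median log2 fold change of -0.19. Scaling by library size alone left 7 lower, and the GC and length correction left 3 higher. C1QBP, a matrix chaperone, was at 195, 188 and 185 CPM in 786-O and 82.8, 113 and 82.5 CPM in resistant 786-O, and GTPBP10, a GTPase of large-subunit assembly, changed by -0.83 ± 0.08 (SE). Of 18 translation factors and mRNA-binding factors 12 fell and 3 rose, with a median of -0.29, among them MTIF2, the initiation factor (-0.77 ± 0.07), and TUFM, the elongation factor (-0.33 ± 0.05, SE). LRPPRC, which stabilises mitochondrial mRNAs, changed by -0.23 ± 0.05, and TSFM was near 0.4 CPM in each group and not called. Of 22 mitochondrial aminoacyl-tRNA synthetase and amidotransferase genes 11 fell and 3 rose, with a median of -0.14, the furthest fall being that of GATC (-0.98 ± 0.04, SE). The furthest rise, that of VARS2, was larger, at 1.32 on the log2 scale. Without resistant 786-O replicate 2, 5 of the 22 rose, and 6 with scaling by library size alone.

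Of 17 genes for replication, transcription and RNA processing of mitochondrial DNA 11 fell and 2 rose in resistant 786-O, with a median of -0.32. TFAM, the packaging and transcription factor, was at 82.7, 83.5 and 86.5 CPM in 786-O and 48.2, 41.9 and 39 CPM in resistant 786-O, a log2 fold change of -0.97 ± 0.06 (SE), and POLRMT, the polymerase, changed by -0.27 ± 0.07. Of 10 regulators of mitochondrial biogenesis 6 fell and 3 rose. NRF1 changed by -0.71 ± 0.08, GABPB1 by -0.74 ± 0.06, GABPA by -0.43 ± 0.06, MYC by -0.44 ± 0.07 and PPRC1 by -0.24 ± 0.04 (SE), all called lower. PPARGC1A, the coactivator PGC-1α, went the other way, from 0.973, 0.957 and 1.38 CPM in 786-O to 7.39, 7.67 and 7.17 CPM in resistant 786-O, and was at 0.955, 0.651 and 0.589 CPM in A498 and 14.4, 15.4 and 15.3 CPM in resistant A498. Its log2 fold change was 2.73 ± 0.14 in resistant 786-O and 4.31 ± 0.16 in resistant A498 against A498 (SE; edgeR adjusted p = 8.33e-11 and 5.08e-13). PPARGC1B and ESRRA rose in resistant 786-O by 1.13 and 0.23.

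The mRNAs that the mitochondrial ribosome translates had a median above 0 in resistant 786-O. Of 13 mitochondrially encoded mRNAs 5 were higher, a share near the 34.9% of all genes, and 1 lower, with a median log2 fold change of 0.34, and MT-CO1 rose by 0.71 ± 0.14 and MT-CO2 by 0.70 ± 0.13 (SE). The count of rises fell to 3 without 786-O replicate 1 or 3, without resistant 786-O replicate 1 or without the filter on low counts, and rose to 8 with the GC and length correction or in a fit of these 2 groups alone and to 9 with scaling by library size alone. The fall, that of MT-ND3, was lost (0 of 13) with the replicate number as a block, with scaling by library size alone, with the GC and length correction, after thinning, with a stricter filter, and without 786-O replicate 1 or 2 or resistant 786-O replicate 2 or 3. In resistant A498 against A498 none rose and 9 fell, with a median of -0.41 and MT-CYB at -1.08 ± 0.20 (SE). The summed level of the 13 was 16189 ± 2023 CPM in 786-O, 22082 ± 2819 in resistant 786-O, 21210 ± 3927 in A498 and 14960 ± 1044 in resistant A498 (SD, n = 3), with overlap between several groups. The 79 cytosolic ribosomal protein genes had a lower median than the mitochondrial ones in resistant 786-O. Of these, 76 fell and 1, RPL36A at 1.98 and 2.98 CPM (means of 786-O and resistant 786-O), rose, with a median of -0.67, and RPLP0 was at -1.09 ± 0.05 (SE). In resistant A498 against A498 55 fell and 12 rose, with a median of -0.30, and against 786-O 78 of 79 were lower, with a median of -0.59.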

How the data were processed

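RNA-seq gene counts of 12 libraries were used, 3 in each of 4 groups. The deposited table holds the counts that the authors made from poly(A)-selected, stranded libraries, with Trimmomatic 0.36.6, HISAT2 2.1.0 and featureCounts 1.6.3 named in the submitters' processing notes, which also name bcl2fastq 2.19.0. Per the study's methods, reads were counted over exons of GENCODE 33 with strand setting 1 of featureCounts, which is the forward setting, whereas the kit marks the reverse strand. Gene symbols, positions and exons were taken here from GENCODE 44, which matched 45283 of 45478 rows, and overlap of exons was measured in that annotation. Reads without molecular identifiers are not independent molecules.

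Groups followed the sample labels. edgeR 4.0.16 (R 4.3.3) was run on the counts of all 12 libraries with filterByExpr, trimmed mean scaling, robust quasi-likelihood fits and Benjamini-Hochberg adjustment over 19929 genes at 0.05. The standard error is the log2 fold change divided by the root of F. The fit was tested on simulated data. Alternatives used DESeq2 1.42.0, limma 3.58.1, other filters and scaling, a GC and length correction (mgcv 1.9.3), thinning, the replicate number as a block, leaving out each library, and an unadjusted two-sample test of raw counts. Promoters came from RefSeq.

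Genes were named by rule: up to 8 rises and 8 falls per comparison without overlap of the libraries, the 5 highest and 5 lowest per kb, genes that failed the filter, and genes with a special role. In the related lists, every other mitoribosomal protein and up to 4 of the largest called changes were eligible, with a few fixed regulators. The mitochondrial ribosomal protein genes, the related lists and the markers were chosen with earlier results of these data known. The two-sample test follows the study's methods but takes no account of depth, so it was not used for the calls. 1 alternative, leaving out genes with over 10% of their exon bases shared, was chosen after seeing the data.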

Additional observations from a re-analysis of the deposited data

Results flagged for a closer look

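The change from the parental to the resistant group differed between the lines for 57 of the 77 tested genes by edgeR's test of the difference, with Benjamini-Hochberg adjustment, compared with 68.1% of all genes, and 12 of the 77 were called in opposite directions in the separate comparisons, compared with 21.6% of all genes. The first share is near that of all genes, and the second is below it. Among those named above, the change in resistant A498 minus that in resistant 786-O was 1.66 for MRPL42, 1.11 for MRPS10, 0.98 for MRPS22, 0.77 for MRPL21 and -1.54 for MRPL38 on the log2 scale. The libraries labelled resistant A498 correlated with 786-O at a median r of 0.905 and with A498 at 0.810, and the part of this resemblance in the differences was not tested.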

How the results depend on the processing

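The direction of the median of the 77 genes held under each alternative, with the exception of resistant A498 against A498, where scaling by library size alone gave 0.0014 in place of -0.07, and of resistant A498 against resistant 786-O, where leaving out resistant 786-O replicate 2 gave 0.0064. Leaving out each library gave 6 to 10 higher and 48 to 60 lower in resistant 786-O against 786-O, 20 to 23 and 26 to 31 in resistant A498 against A498, 38 to 44 and 14 to 19 for the difference of the changes, 4 to 5 and 50 to 55 in resistant A498 against 786-O, 43 to 49 and 12 to 14 in 786-O against A498, and 9 to 19 and 13 to 23 in resistant A498 against resistant 786-O. Calls over all genes moved in these fits too. They were 6352 to 7599 higher and 6117 to 7274 lower in resistant 786-O against 786-O. In resistant A498 against resistant 786-O they were 3969 to 5431 higher and 3563 to 5399 lower. With a fold change beyond 0.5 (log2), 3 were higher and 21 lower in resistant 786-O, 6 and 12 in resistant A498 against A498, 1 and 27 in resistant A498 against 786-O, 26 and 3 in 786-O against A498, 1 and 4 in resistant A498 against resistant 786-O, and 8 were lower for the difference. Beyond 1 these were 0 and 2, 1 and 0, 0 and 1, 2 and 0, 0 and 1, and 3 and 1 for the difference. Fewer genes pass a stricter threshold by construction. In resistant A498 against 786-O 11 were higher with library size alone and 10 with the GC and length correction, with or without the replicate block. Of all 19929 genes 7887 were higher with library size alone, 6347 with the correction and 6293 with the block added. In resistant A498 against resistant 786-O the groups alone gave 8 higher and 11 lower. Of all 18157 genes tested in that fit, 3644 were higher and 3630 lower.

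The unadjusted two-sample test of raw counts gave 18 lower in resistant 786-O against 786-O, 1 higher and 3 lower in resistant A498 against A498, 0 higher in resistant A498 against 786-O, 0 lower in 786-O against A498, and 0 higher and 75 lower in resistant A498 against resistant 786-O. It does not scale for depth, and library totals differ between the groups. It reversed MRPL34 (-0.095), MRPL41 (-0.39), MRPL54 (-0.52), MRPL49 (-0.54) and MRPS6 (-0.56) in resistant A498 against 786-O, and MRPL45 (0.031), MRPL23 (0.090), MRPL17 (0.14), MRPL34 (0.13), MRPS27 (0.15) and MRPL32 (0.17) in 786-O against A498. MRPL54 in resistant 786-O against 786-O became -0.0085 with the GC and length correction and -0.012 with the replicate block added; the cause was not tested.

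Replicate numbers did not pair the libraries, since same-numbered libraries of different groups gave correlations of deviations from -0.252 to 0.254, with 3 of 18 over 0.1. With the replicate block 7 genes were higher and 52 lower in resistant 786-O against 786-O, 21 and 33 in resistant A498 against A498, 5 and 57 in resistant A498 against 786-O, and 39 and 16 for the difference. The block ended the call of MRPL10 in resistant 786-O (0.15) and that of the 1 mitochondrial mRNA called lower there (0 of 13). MRPL53, with 4 counts in all, did not pass the filter on low counts and was not tested. Leaving out genes below 10 CPM, or with over 10% of exon bases shared (chosen after seeing the data), left the median in resistant 786-O at -0.31, over 71 and 49 genes.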

Other observations

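Among the 48 rows left out, 5 had a mean above 1 CPM in some group. MRPL20-AS1, an antisense transcript at the MRPL20 locus, was at 31.4, 30.8, 17.2 and 24.5 CPM in 786-O, resistant 786-O, A498 and resistant A498. MRPS9-AS1 was at 23.8, 17.4, 14.3 and 16.6 CPM. Over the 12 libraries these were 41.4% and 43.8% of the levels of MRPL20 and MRPS9, and reads from opposite strands cannot be told apart in these counts where exons overlap. The overlap covers 5.0% of the exon bases of MRPL20 and 20.3% of those of MRPS9. MRPL3P1 was the only pseudogene among the 5, at 2.06, 1.12, 1.20 and 1.6 CPM in the same order. Exchange of reads between pseudogenes and their parent genes was not tested.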
